A study of Mus musculus with 12 samples.

Results

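The genes described here are 10 members of the matrix metalloproteinase (MMP) system, 6 enzymes (Mmp2, Mmp3, Mmp9, Mmp11, Mmp13 and Mmp14) and the 4 tissue inhibitors of metalloproteinases (Timp1, Timp2, Timp3 and Timp4), among 35523 genes measured by RNA-seq. They were taken by name, and 9 of the 10 held at least 10 estimated counts over the 12 libraries, the minimum for a test. Timp4 did not reach it. The cells were primary cardiac fibroblasts from wild type C57BL/6J mice of both sexes, cultured in low serum before the cytokine was given. Histone H1.0, a linker histone, was targeted with siRNA for which the paper lists 4 sequences. The cells carried either this H1.0 siRNA or a scramble siRNA, and received TGF-β at 10 ng/ml or vehicle. The 4 groups are therefore H1.0 siRNA with TGF-β, H1.0 siRNA with vehicle, scramble with TGF-β and scramble with vehicle, each with 3 biological replicates. Every library, controls included, comes from cultured and transfected cells. How long TGF-β was present before these libraries were made is not given in the sources used here. The study used these libraries to ask which parts of the transcriptional response to TGF-β need histone H1.0.

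MMPs are zinc-dependent endopeptidases that are made as inactive precursors and cut collagens, gelatins, proteoglycans and other proteins of the extracellular matrix once their propeptide is removed. TIMPs are small secreted proteins that block the active site of MMPs, and the balance between enzymes and inhibitors sets how fast matrix is turned over in the fibrotic heart. TIMP2 has a further role, because together with the membrane enzyme MMP14 it forms the complex on the cell surface in which pro-MMP2 is activated. In bulk RNA a lower value cannot be told apart as fewer cells that make a transcript or as less of it in each cell, and transcript levels say nothing of proenzyme activation.

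Promoter sequences from RefSeq on GRCm38.p6, 250 bases before to 50 after the start of transcription, were found for 8 of the 10 genes, Mmp2 and Mmp9 being the others. The first pair below is shown because AP-1, the transcription factor long known to drive collagenase and stromelysin genes, has the 7-letter motif TGANTCA, searched on both strands and marked in capitals, in these windows of Mmp3 and Mmp13. The match begins at position −46 from the start in Mmp3 and at −35 in Mmp13. None of the other 6 windows held these letters, against 7.81% of 32851 promoters of the same length that did. Mmp3 is read at chr9:7445572-7445871 and Mmp13 at chr9:7272264-7272563, both on the plus strand.
Mmp3: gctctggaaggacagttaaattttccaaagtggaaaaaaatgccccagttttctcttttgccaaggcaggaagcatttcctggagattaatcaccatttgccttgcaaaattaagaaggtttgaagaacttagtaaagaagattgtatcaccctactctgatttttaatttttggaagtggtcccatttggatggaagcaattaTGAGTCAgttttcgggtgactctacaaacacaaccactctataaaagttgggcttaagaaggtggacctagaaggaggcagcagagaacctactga
Mmp13: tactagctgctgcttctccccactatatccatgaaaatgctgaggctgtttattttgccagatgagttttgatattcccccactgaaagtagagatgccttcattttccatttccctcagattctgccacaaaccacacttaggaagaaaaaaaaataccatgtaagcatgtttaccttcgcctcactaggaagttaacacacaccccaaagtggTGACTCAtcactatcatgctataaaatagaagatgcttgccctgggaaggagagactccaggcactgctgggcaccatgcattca

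The promoters of Timp1 and Timp2 are shown next because these inhibitors had fold changes of opposite sign in each comparison of groups. Capitals mark the 6-letter Sp1 motif GGGCGG or its reverse complement, which 35.7% of the 32851 promoters held. It begins at position −8 in Timp1 (chrX:20869916-20870215, plus strand) and at −37 in Timp2 (chr11:118355362-118355661, minus strand). The Sp1 motif was also found in the windows of Mmp11, Mmp14 and Timp3. The TATA motif TATAAA, present in 13.6% of promoters, was found in Mmp3 and Mmp13 and in neither Timp1 nor Timp2. The PEA3 motif AGGAAG, present in 35.4% of promoters, was found 3 times in Timp1 and not in Timp2. Mmp3, Mmp13, Mmp14, Timp3 and Timp4 held it too. The SMAD motif GTCTAGAC, present in 0.213% of promoters, was in none of the members' windows. None of these motifs overlapped another, and a match of letters is a description and not a bound site.
Timp1: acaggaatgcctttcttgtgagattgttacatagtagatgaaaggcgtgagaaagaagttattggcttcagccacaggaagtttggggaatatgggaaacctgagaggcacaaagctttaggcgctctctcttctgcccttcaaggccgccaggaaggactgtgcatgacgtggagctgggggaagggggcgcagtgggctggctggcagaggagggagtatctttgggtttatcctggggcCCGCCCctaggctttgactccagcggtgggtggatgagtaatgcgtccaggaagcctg
Timp2: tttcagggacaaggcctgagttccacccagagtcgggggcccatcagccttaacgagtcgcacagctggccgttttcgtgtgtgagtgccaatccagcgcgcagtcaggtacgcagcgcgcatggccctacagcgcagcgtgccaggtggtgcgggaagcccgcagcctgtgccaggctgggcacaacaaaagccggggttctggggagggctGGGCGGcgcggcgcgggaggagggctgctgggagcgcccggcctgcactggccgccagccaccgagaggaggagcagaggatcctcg

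Library totals ran from 19.9 to 36.3 M estimated counts, with 36.2 to 36.3 M in the 3 libraries of H1.0 siRNA with TGF-β, 35.5 M in H1.0 siRNA with vehicle replicate 3 and at most 24.4 M in the other 8. H1f0, the gene the siRNA targets, had 31.4, 32.6 and 19.0 CPM (counts-per-million of the library) in H1.0 siRNA cells with TGF-β, against 105, 109 and 105 CPM in scramble cells with TGF-β. With vehicle it had 36.5, 40.0 and 22.4 CPM in H1.0 siRNA cells, against 93.6, 113 and 98.6 CPM in scramble cells, so all H1.0 siRNA libraries lay below all scramble libraries. All 10 fibroblast markers were detected. With TGF-β they summed to 35770 to 39810 CPM in H1.0 siRNA cells and 31600 to 34320 CPM in scramble cells. With vehicle the sums were 40180 to 41380 CPM and 33320 to 36350 CPM. Single fibroblast markers went both ways. Thy1 had 4.65 to 10.6 CPM in H1.0 siRNA cells and 21.5 to 82.9 CPM in scramble cells. Col3a1 with vehicle had 18120 to 18700 CPM and 10750 to 11590 CPM. All 10 macrophage markers were detected too, at sums from 394 to 886 CPM, whereas S100a9, Ly6g and Elane of the 6 neutrophil markers were at 0. Other marker sums moved with the siRNA as well, those of cardiomyocytes at 7.05 to 12.7 CPM in H1.0 siRNA cells and 66.3 to 97.6 CPM in scramble cells. Most of that sum was Tnnt2 alone, at 5.49 to 10.05 CPM in H1.0 siRNA cells and 63.2 to 91.0 CPM in scramble cells. Ryr2 was lower too, at 1.42 CPM at most, and the other cardiomyocyte markers overlapped between siRNA and scramble libraries over both treatments. Endothelial markers summed to 50.04 to 60.4 CPM in H1.0 siRNA cells and 66.6 to 121 CPM in scramble cells. Tek carried most of this difference, at 12.4 to 23.5 CPM in H1.0 siRNA cells and 35.2 to 78.4 CPM in scramble cells. Cdh5, Kdr and Emcn overlapped between siRNA and scramble libraries under each treatment. Pecam1 with TGF-β had 4.13 to 5.86 CPM in H1.0 siRNA cells and 6.01 to 7.01 CPM in scramble cells, and overlapped with vehicle. Vwf with vehicle had 7.23 to 8.50 CPM in H1.0 siRNA cells and 9.605 to 11.3 CPM in scramble cells, and overlapped with TGF-β. Smooth muscle and pericyte markers summed to 399 to 529 CPM in H1.0 siRNA cells and 833 to 1106 CPM in scramble cells with TGF-β, and to 237 to 293 CPM in H1.0 siRNA cells and 514 to 776 CPM in scramble cells with vehicle. Their part in the siRNA results below was not tested. Libraries with replicate number 3 stood apart. Within each group, counts of replicate 3 differed from the others by a chi-square per degree of freedom of 27.4 to 69.3, against 9.41 to 16.99 between replicates 1 and 2.

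Per transcript length, the inhibitors outranked most of the enzymes. In TPM (transcripts-per-million, which takes length into account), the scramble cells with vehicle carried Timp3 at 1849 ± 16.0 (SD, n = 3), Timp2 at 760 ± 73.5 and Timp1 at 499 ± 147 (n = 3 each). The gelatinase gene Mmp2 followed at 490 ± 40.3 TPM, so that Timp1 and Mmp2 did not differ beyond their spread, and the membrane enzyme Mmp14 at 166 ± 21.4 TPM. Mmp3 stood at 124 ± 134 TPM, a spread as wide as its mean, Mmp11 at 33.4 ± 2.85 TPM, Mmp13 at 2.42 ± 0.230 TPM and Mmp9 at 0.925 ± 0.0568 TPM. The order was different in H1.0 siRNA cells with TGF-β. There Timp1 came first at 3297 ± 718 TPM, ahead of Timp3 at 2193 ± 169, Mmp14 at 402 ± 52.7, Mmp2 at 289 ± 18.1 and Timp2 at 224 ± 40.1 TPM (SD, n = 3 each). Timp4 was last in every group. CPM per kilobase of effective length gave the same ranks in all 4 groups, but it uses the same effective lengths as TPM and is no separate check.

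**Figure D1:**
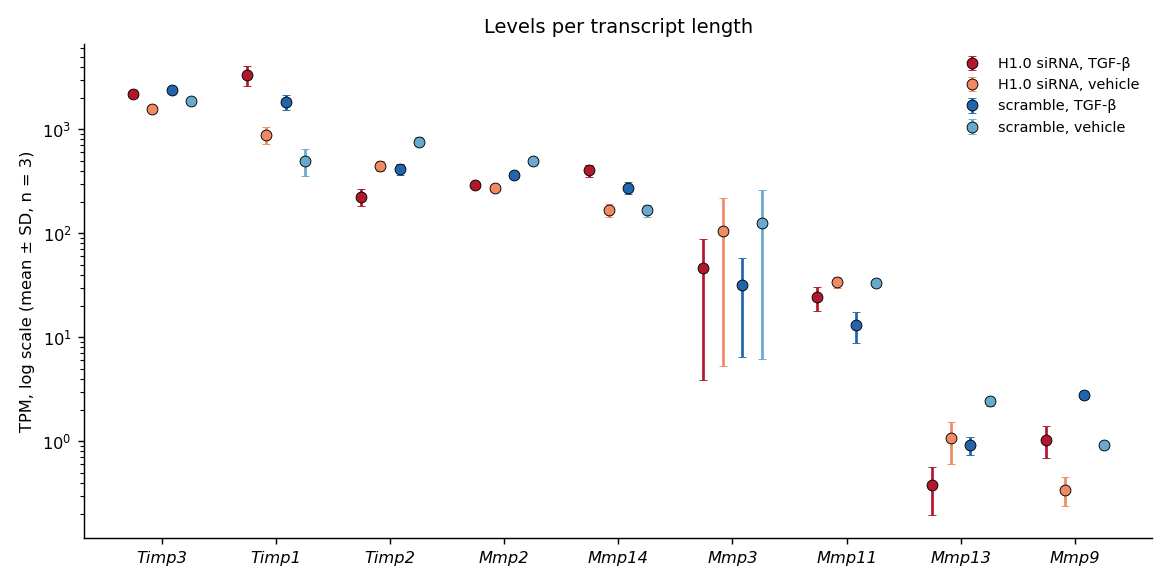
Levels of the 9 tested genes in TPM on a log axis, as means with SD over 3 libraries, for H1.0 siRNA with TGF-β, H1.0 siRNA with vehicle, scramble with TGF-β and scramble with vehicle from left to right within each gene. Timp3 and Timp1 lie at the top except in scramble with vehicle, where Timp2 at 760 TPM lies above Timp1 at 499 TPM. Mmp13 and Mmp9 lie below 3 TPM in every group, and Mmp3 has the widest bars.

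In H1.0 siRNA cells with TGF-β against scramble cells with TGF-β, 4 of the 9 tested genes passed an adjusted p of 0.01 in edgeR's quasi-likelihood test, where 24.3% of all 18028 genes tested did. Mmp11 and Mmp14 rose (13% of all genes), and Mmp9 and Timp2 fell (11.3%). In H1.0 siRNA cells with vehicle against scramble cells with vehicle, 2 of the 9 passed, Mmp2 and Timp2, and both fell. Of all genes 24.7% passed, 13.4% higher and 11.2% lower. The median log2 fold change of the 9 genes was −0.04 with TGF-β and −0.24 with vehicle, beside 0.04 and 0.00 over all genes tested. Libraries of H1.0 siRNA and scramble cells did not overlap for 7 of the 9 genes under either treatment, against 46.5% of all genes with TGF-β and 48% with vehicle. Timp2 was the gene of this set that passed in both of these comparisons.

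For TGF-β against vehicle in scramble cells 7 of the 9 genes passed, where 18.4% of all genes did: Mmp9, Mmp14, Timp1 and Timp3 rose (10.5% of all genes), and Mmp2, Mmp11 and Timp2 fell (7.94%). In H1.0 siRNA cells 4 of the 9 passed (15.7% of all genes), with Mmp14, Timp1 and Timp3 higher (9.14%) and Timp2 lower (6.6%). Leaving out 1 library took the count in scramble cells to as few as 4. In those settings calls over all genes fell too, from 3324 to between 1871 and 1976. The test of the difference, the interaction given below, called none of the 9. Libraries with TGF-β and vehicle did not overlap for 8 of the 9 genes in scramble cells and in H1.0 siRNA cells alike, against 45.7% and 42.6% of all genes. Mmp3 was the gene whose libraries overlapped in both. The median log2 fold change of the 9 genes was −0.37 in scramble cells and 0.18 in H1.0 siRNA cells, beside −0.01 in both over all genes.

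**Figure D2:**
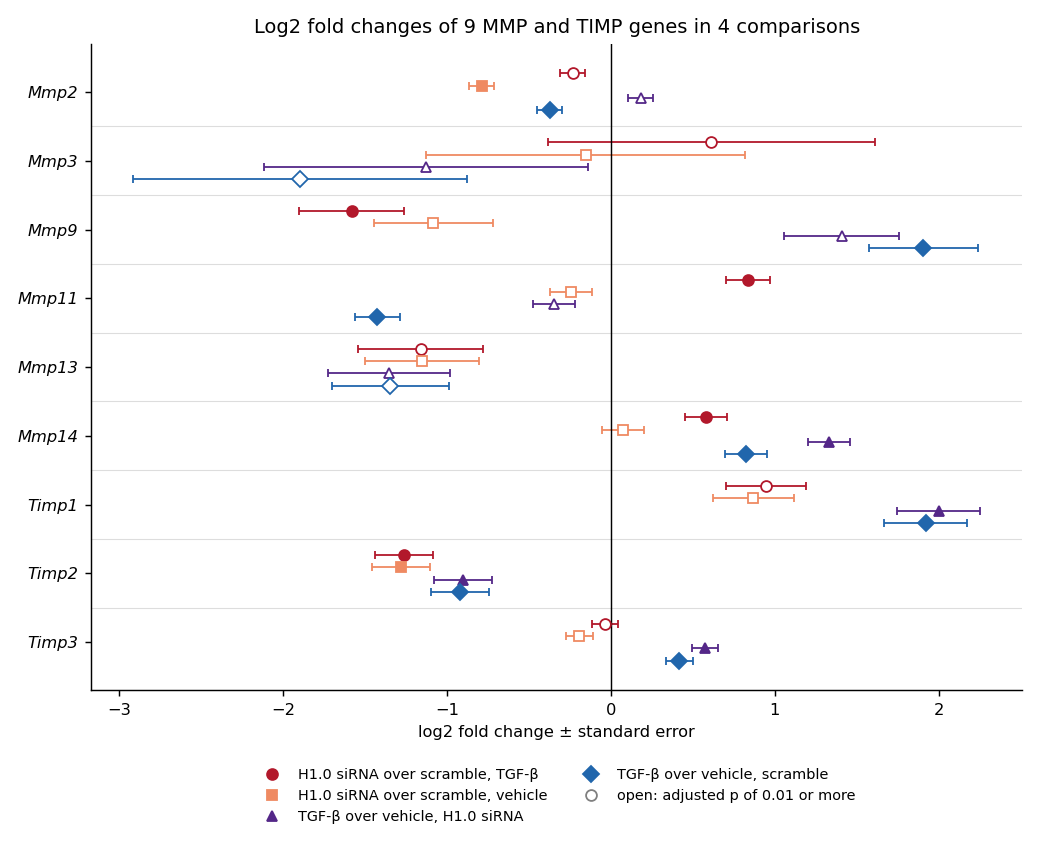
Log2 fold change with its standard error from edgeR for 9 genes in 4 comparisons, filled where the adjusted p was under 0.01 and open otherwise. Timp2 lies left of 0 and is filled in all 4 comparisons, Timp1 lies right of 0 in all 4, and the bars of Mmp3 reach across 0 for the siRNA.

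Timp1, an inhibitor of most secreted MMPs that is also known as a marker of fibrosis, was the inhibitor with the widest rise. It lies on chromosome X of GRCm38 from 20870166 to 20874735, inside the gene Syn1 on the other strand. Its values were 1130.2, 1034 and 1612 CPM in H1.0 siRNA cells with TGF-β, against 300, 253 and 392 CPM in H1.0 siRNA cells with vehicle. In scramble cells they were 597, 573 and 788 CPM with TGF-β, against 124, 165 and 229 CPM with vehicle. All TGF-β libraries lay above all vehicle libraries, and within each treatment all H1.0 siRNA libraries lay above all scramble libraries. The log2 fold change for TGF-β was 2.00 in H1.0 siRNA cells (standard error 0.25, adjusted p = 2.5e-04) and 1.92 in scramble cells (0.25, 3.1e-04). The siRNA difference of 0.95 with TGF-β had an adjusted p of 0.0106 and a standard error of 0.25, just past the threshold, as did 0.87 with vehicle (0.25, 0.0168). With the replicate number as a block, both passed, at 0.93 (standard error 0.11, adjusted p = 3.4e-05) and 0.88 (0.11, 5.9e-05), as they did in DESeq2 (0.0012 and 0.0030). The siRNA difference with TGF-β also passed when scramble vehicle replicate 1 or 3 or H1.0 siRNA vehicle replicate 3 was left out (0.00591 to 0.00937), and that with vehicle passed without scramble vehicle replicate 3 (0.00565). H1.0 siRNA with TGF-β against scramble with vehicle gave the widest change of the set, 2.87 (standard error 0.26, adjusted p = 9.3e-06). Its host gene Syn1 was at 2.11 to 4.10 CPM in all 12 libraries, so its reads are few beside those of Timp1, and whether counting used strand is not given in the sources used here.

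Timp2 went the other way in every comparison of treatments. The gene, whose product both inhibits MMPs and helps to activate pro-MMP2, lies on chromosome 11 from 118301069 to 118355740 on the minus strand. It had 238, 266 and 162 CPM in H1.0 siRNA cells with TGF-β, against 582, 570 and 447 CPM in scramble cells with TGF-β. With vehicle it had 433, 458 and 354 CPM in H1.0 siRNA cells, against 1044, 1091 and 895 CPM in scramble cells. The 4 groups did not overlap except that 458 CPM in H1.0 siRNA cells with vehicle lay above 447 CPM in scramble cells with TGF-β. The log2 fold change for the siRNA was −1.26 under TGF-β (standard error 0.18, adjusted p = 2.3e-04) and −1.28 under vehicle (0.18, 2.1e-04). That for TGF-β was −0.90 in H1.0 siRNA cells (0.18, 0.0032) and −0.92 in scramble cells (0.18, 0.0025). The difference between these TGF-β effects, H1.0 siRNA less scramble (the interaction), was 0.02 with a standard error of 0.25. The TGF-β calls were lost without H1.0 siRNA vehicle replicate 1 or 2 (adjusted p = 0.0130 and 0.0144), and in scramble cells without vehicle replicate 1 or 2 or TGF-β replicate 3 (0.01003, 0.0119 and 0.0128).

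The 2 annotated Timp2 transcripts were both lower with TGF-β but differed for the siRNA, which was seen only after their values were known and is given as a description. Timp2-201, the form of 3709 bases, was estimated at 196, 222 and 126 CPM in H1.0 siRNA cells with TGF-β, against 534, 529 and 405 CPM in scramble cells with TGF-β. With vehicle it was at 357, 385 and 281 CPM in H1.0 siRNA cells, against 977, 1018 and 831 CPM in scramble cells. Timp2-202, a form of 718 bases, was at 41.7, 43.4 and 36.9 CPM in H1.0 siRNA cells with TGF-β, against 47.7, 41.3 and 41.7 CPM in scramble cells with TGF-β. The short form thus overlapped between siRNA and scramble under TGF-β where the long form did not, and both forms lay below their vehicle libraries in H1.0 siRNA and in scramble cells. With vehicle the short form was at 76.5, 73.2 and 73.2 CPM in H1.0 siRNA cells, against 67.6, 73.2 and 63.9 CPM in scramble cells. Its share of Timp2 counts was 18.9% ± 3.39 in H1.0 siRNA cells and 8.26% ± 1.04 in scramble cells with TGF-β (SD, n = 3 each). With vehicle that share was 18.1% ± 2.38 in H1.0 siRNA cells and 6.78% ± 0.339 in scramble cells (SD, n = 3 each). Salmon divides the reads that fall on exons common to both forms, so these transcript values carry more error than their sum.

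**Figure D3:**
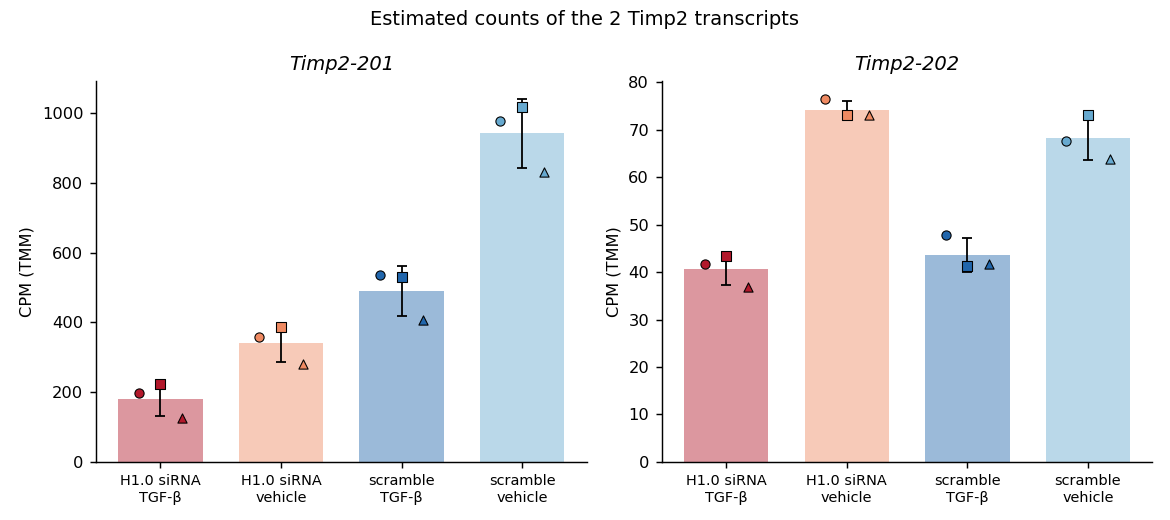
CPM of the Timp2 transcripts of 3709 bases (Timp2-201) and 718 bases (Timp2-202) in 12 libraries. Bars are means, error bars SD (n = 3) and points libraries. The long form spans 126 to 1018 CPM with all H1.0 siRNA libraries below the scramble libraries of the same treatment, and the short form spans 36.9 to 76.5 CPM.

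Timp3, the inhibitor that binds to the matrix itself, led the set per length in 3 of the 4 groups. It lies on chromosome 10 from 86300372 to 86349506, inside Syn3 on the other strand, and Syn3 stood at 1.85 to 4.17 CPM. Timp3 had 5930.1, 5741 and 5226 CPM in H1.0 siRNA cells with TGF-β, against 3970.5, 3783 and 3596 CPM in H1.0 siRNA cells with vehicle. In scramble cells it had 5968, 5542 and 5816 CPM with TGF-β, against 4293, 4318 and 4361 CPM with vehicle. All TGF-β libraries lay above all vehicle libraries. The rise was 0.57 on the log2 scale in H1.0 siRNA cells (standard error 0.08, adjusted p = 5.2e-04) and 0.42 in scramble cells (0.08, 0.0029). Leaving out vehicle replicate 1 or 2 or TGF-β replicate 1 or 3 of the scramble cells took the adjusted p to between 0.0106 and 0.0135, past the threshold. For the siRNA, the log2 fold change was −0.04 with TGF-β (standard error 0.08, adjusted p = 0.78), where the groups overlapped, and −0.19 with vehicle (0.08, 0.089), which passed in DESeq2 (0.0011).

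Timp4, the inhibitor found mostly in the heart and the brain of mammals, was nearly absent from these cells. Its 9 estimated counts were 2 and 1 in replicates 2 and 3 of H1.0 siRNA with TGF-β and 6 in replicate 1 of scramble with TGF-β. The other 9 libraries had 0, which allows up to 3 counts a library, or 0.154 CPM at most, for counting error only. It lies on chromosome 6 from 115241892 to 115252205, inside Syn2, and no fold change was computed.

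**Figure D4:**
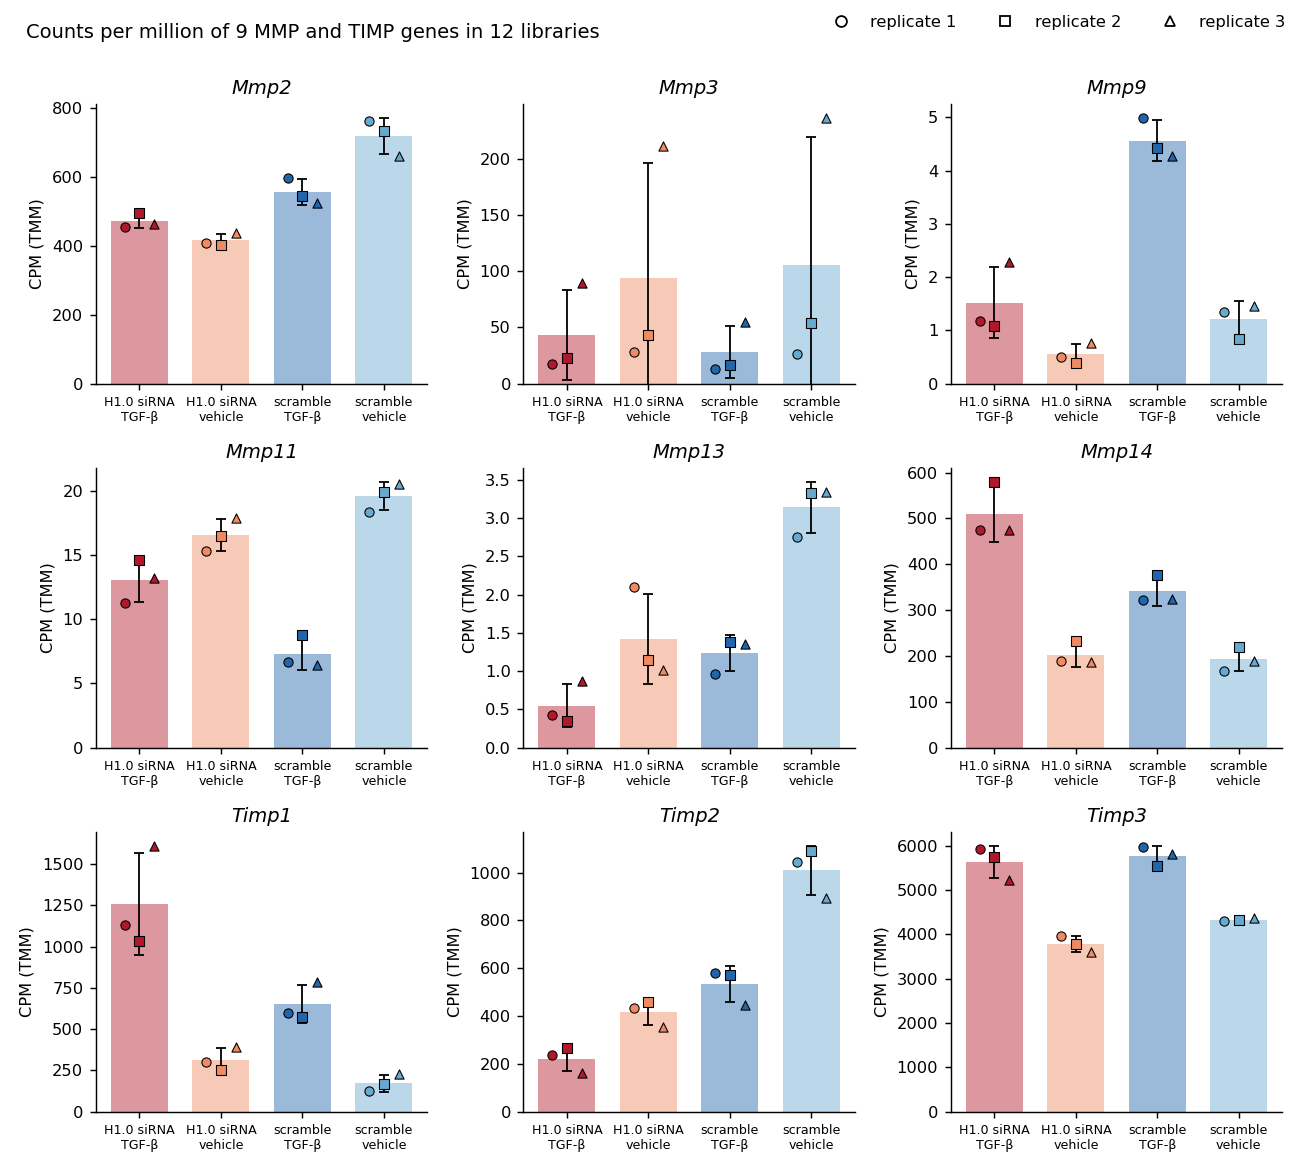
CPM, normalized by TMM, of the 9 tested genes in 12 libraries. Bars are group means, error bars SD (n = 3, cut off at 0) and points libraries by replicate number. Timp1 is highest and Timp2 lowest in H1.0 siRNA with TGF-β, Mmp9 is highest in scramble with TGF-β at 4.27 to 4.99 CPM, and replicate 3 of Mmp3 stands above the others in every group.

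Among the gelatinases, which degrade denatured collagen and basement membrane, Mmp2 was abundant and Mmp9 was scarce. Mmp2 (chromosome 8, 92827291 to 92853420) had 408, 404 and 437 CPM in H1.0 siRNA cells with vehicle, against 763, 734 and 661 CPM in scramble cells with vehicle. With TGF-β it had 456, 495 and 465 CPM in H1.0 siRNA cells, against 596, 546 and 523 CPM in scramble cells. All H1.0 siRNA libraries were below all scramble libraries. The log2 fold change for the siRNA was −0.79 with vehicle (standard error 0.08, adjusted p = 2.2e-05) and −0.23 with TGF-β, where it missed the threshold (0.08, 0.034) and passed in DESeq2 (7.9e-04). Mmp2 fell with TGF-β in scramble cells by 0.37 on the log2 scale (standard error 0.08, adjusted p = 0.0039), a call lost when vehicle replicate 1 or 2 or TGF-β replicate 2 or 3 was left out (0.0158 to 0.0199). In H1.0 siRNA cells the TGF-β libraries were all above the vehicle libraries, at 0.18 (0.08, 0.11).

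Mmp9, known from neutrophils and macrophages as well as activated fibroblasts, lies on chromosome 2 from 164940780 to 164955850. It rested on 9 to 114 estimated counts a library. It had 1.18, 1.09 and 2.28 CPM in H1.0 siRNA cells with TGF-β, against 4.99, 4.42 and 4.27 CPM in scramble cells with TGF-β. With vehicle it had 0.502, 0.397 and 0.771 CPM in H1.0 siRNA cells, against 1.34, 0.832 and 1.46 CPM in scramble cells. The scramble cells with TGF-β stood above the other 9 libraries. Mmp9 rose with TGF-β in scramble cells by 1.91 on the log2 scale (standard error 0.33, adjusted p = 0.0015) and was lower with the siRNA under TGF-β, at −1.58 (0.32, 0.0025). The siRNA difference with vehicle was −1.08 (0.36, 0.036), which passed with an offset for transcript length (−1.35, adjusted p = 0.0095). TGF-β in H1.0 siRNA cells gave 1.41 (0.35, 0.0118), which passed with the replicate block (1.41, standard error 0.28, adjusted p = 0.0024), in DESeq2 (0.0020) and without H1.0 siRNA TGF-β replicate 2 (0.00979). It also passed with the length offset (0.0043) and with counts thinned to the lowest total (0.0075). The interaction was −0.50 (standard error 0.49, adjusted p = 0.76). Leaving out scramble TGF-β replicate 1, or replicate 1 or 2 of H1.0 siRNA with TGF-β, ended the siRNA call (adjusted p of 0.0109 to 0.0135). Summed macrophage markers lay from 394 to 619 CPM in H1.0 siRNA with TGF-β, 710 to 772 in H1.0 siRNA with vehicle, 592 to 644 in scramble with TGF-β and 811 to 886 in scramble with vehicle. Without Lyz2, the other 9 summed with vehicle to 298 to 333 CPM in H1.0 siRNA and 236 to 299 CPM in scramble cells. With TGF-β these 9 summed to 166 to 256 CPM and 181 to 200 CPM. The neutrophil markers summed to 2.72 CPM at most, and the part of other cells in the Mmp9 result was not tested.

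Mmp14, the membrane-type enzyme that activates pro-MMP2 and cuts fibrillar collagen at the cell surface, rose with TGF-β with and without the H1.0 siRNA. The gene is on chromosome 14 from 54431612 to 54445364. It had 475, 580.0 and 475 CPM in H1.0 siRNA cells with TGF-β, against 323, 377 and 323 CPM in scramble cells with TGF-β. With vehicle it had 189, 232 and 187 CPM in H1.0 siRNA cells, against 168, 220 and 189 CPM in scramble cells. The vehicle groups overlapped, and the TGF-β groups did not. The log2 fold change for TGF-β was 1.33 in H1.0 siRNA cells (standard error 0.13, adjusted p = 4.6e-05) and 0.82 in scramble cells (0.13, 7.3e-04). For the siRNA it was 0.58 with TGF-β (0.13, 0.0038) and 0.07 with vehicle (0.13, 0.70). The difference between the TGF-β effects was 0.51 (standard error 0.18, adjusted p = 0.28) and passed with the replicate block, at 0.50 (0.08, 0.0083). The siRNA call with TGF-β ended when scramble TGF-β replicate 1 or 3 or H1.0 siRNA TGF-β replicate 2 was left out (0.0169 to 0.0184), or all replicate 3 libraries (0.0194).

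Mmp11, or stromelysin 3, which is made active inside the cell by furin, fell with TGF-β in scramble cells and less so after H1.0 siRNA. Its place is chromosome 10 from 75923222 to 75936496. It had 11.3, 14.6 and 13.2 CPM in H1.0 siRNA cells with TGF-β, against 15.3, 16.5 and 17.8 CPM in H1.0 siRNA cells with vehicle. In scramble cells it had 6.70, 8.78 and 6.47 CPM with TGF-β, against 18.4, 19.9 and 20.5 CPM with vehicle. Under TGF-β all H1.0 siRNA libraries lay above all scramble libraries, and under vehicle all lay below. The TGF-β effect was −1.42 in scramble cells (standard error 0.13, adjusted p = 6.4e-05) and −0.35 in H1.0 siRNA cells (0.13, 0.067). The siRNA effect was 0.84 with TGF-β (0.13, 5.4e-04) and −0.24 with vehicle (0.13, 0.17), which turned to 0.0434 with an offset for transcript length (adjusted p = 0.91). The interaction of 1.08 missed the threshold (standard error 0.19, adjusted p = 0.039) and passed with the replicate block (0.15, 0.0056) and in DESeq2 (adjusted p = 8.9e-05). With that offset, the siRNA effect with TGF-β lost its call (0.94, adjusted p = 0.0114).

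Mmp3, or stromelysin 1, which cuts proteoglycans and activates other MMPs, differed more between replicates than between groups. It lies on chromosome 9 from 7445822 to 7455975. It had 17.6, 22.4 and 89.8 CPM in H1.0 siRNA cells with TGF-β, against 28.1, 43.1 and 211 CPM in H1.0 siRNA cells with vehicle. In scramble cells it had 13.0, 16.8 and 54.8 CPM with TGF-β, against 26.2, 53.7 and 236 CPM with vehicle. Replicate 3 was the highest in all 4 groups, by 3.26 to 4.91 times the next, and within each replicate number the TGF-β library was below the vehicle library. Without the block no comparison passed. The TGF-β effect was −1.13 in H1.0 siRNA cells (standard error 0.99, adjusted p = 0.44) and −1.89 in scramble cells (1.02, 0.19), the second running from −2.82 to −0.50 as single libraries were left out. With the replicate block it passed, at −0.97 in H1.0 siRNA cells (0.16, 7.2e-04) and −1.65 in scramble cells (0.17, 3.0e-05). The siRNA effect was 0.61 with TGF-β (1.00, 0.69) and −0.15 with vehicle (0.97, 0.93).

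**Figure D5:**
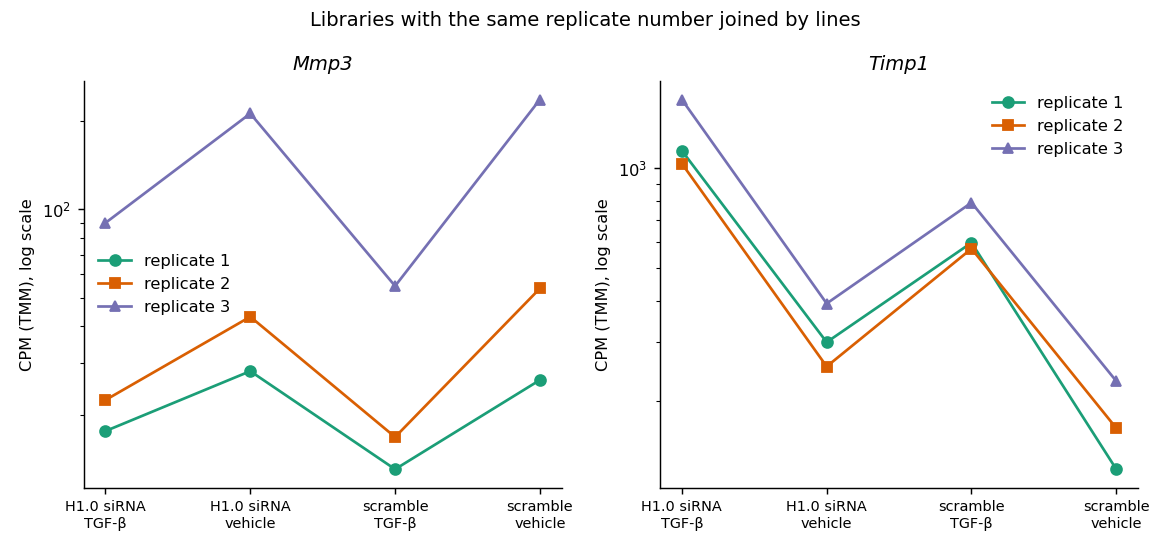
CPM of Mmp3 and Timp1 on log axes, with libraries of the same replicate number joined by lines across the 4 groups. Replicate 3 of Mmp3 runs from 54.8 to 236 CPM above the other lines, and each line of Timp1 is lowest in scramble with vehicle.

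Mmp13, the main interstitial collagenase of the mouse, was scarce, at 12 to 73 estimated counts a library. It lies on chromosome 9 from 7272514 to 7283331. It had 0.433, 0.345 and 0.868 CPM in H1.0 siRNA cells with TGF-β, against 0.963, 1.39 and 1.35 CPM in scramble cells with TGF-β. With vehicle it had 2.09, 1.15 and 1.02 CPM in H1.0 siRNA cells, against 2.76, 3.33 and 3.34 CPM in scramble cells. The scramble cells with vehicle lay above all other libraries, and the H1.0 siRNA cells with TGF-β below them all. Each of the 4 comparisons of a single factor gave from −1.15 to −1.35 and missed the threshold in edgeR (standard errors from 0.35 to 0.38, adjusted p from 0.0141 to 0.0328). DESeq2 called 3 of them, all but the siRNA effect with TGF-β (0.0027 to 0.0062), and limma-voom called the siRNA effect with vehicle (0.0055) and that of TGF-β in scramble cells (0.0077). All 4 passed once replicate 3 of H1.0 siRNA with TGF-β was left out (0.00527 to 0.00843), and the siRNA effect with vehicle also without H1.0 siRNA vehicle replicate 1 (0.00936). Without every replicate 3 library TGF-β in H1.0 siRNA cells gave −2.05 (0.0052). H1.0 siRNA with TGF-β against scramble with vehicle, where both factors differ, gave −2.51 (standard error 0.37, adjusted p = 2.1e-04).

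With both factors changed, 7 of the 9 genes passed, where 34.4% of all genes did. Mmp14, Timp1 and Timp3 were higher in H1.0 siRNA cells with TGF-β than in scramble cells with vehicle (19% of all genes), and Mmp2, Mmp11, Mmp13 and Timp2 were lower (15.4%). Libraries of these groups did not overlap for 7 of the 9 genes, against 54.5% of all genes. Timp2 gave −2.19 (standard error 0.18, adjusted p = 5.6e-06), Mmp14 1.405 (0.13, 9.1e-06) and Mmp2 −0.61 (0.08, 7.7e-05). Timp3 at 0.38 lost its call when scramble vehicle replicate 2 or replicate 1 or 2 of H1.0 siRNA with TGF-β was left out (0.0101 to 0.0136). Mmp11 at −0.59 lost it with an offset for transcript length (−0.37, adjusted p = 0.23), without every replicate 3 library (0.0171), and when scramble vehicle replicate 2 or 3 or replicate 1 of H1.0 siRNA with TGF-β was left out (0.0109 to 0.0139). Mmp3 passed with the replicate block, at −1.11 (standard error 0.16, adjusted p = 1.5e-04). This comparison shares its libraries with the others. For the interaction edgeR called 0 of the 9 genes, and 0.0444% of all genes. Mmp2, Mmp11 and Mmp14 had an unadjusted p under 0.05 in edgeR, as had 2149 of all 18028 genes. DESeq2 called Mmp2 and Mmp11 for the interaction, among 239 genes in all.

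Added up per length, the enzymes of the set stood lowest against the inhibitors under TGF-β. The summed TPM of the 6 MMP genes over that of the 4 TIMP genes was 0.123, 0.157 and 0.122 in H1.0 siRNA cells with TGF-β, against 0.163, 0.200 and 0.243 in H1.0 siRNA cells with vehicle. In scramble cells it was 0.148, 0.164 and 0.137 with TGF-β, against 0.246, 0.252 and 0.290 with vehicle. TGF-β and vehicle did not overlap in either, whereas the siRNA groups overlapped under TGF-β. Within the inhibitors, Timp1 held 57.3% ± 7.06 of the TIMP TPM in H1.0 siRNA cells with TGF-β and 16.0% ± 4.26 in scramble cells with vehicle (SD, n = 3). The TPM of Mmp14 over that of Timp2, its partner in the activation of pro-MMP2, was 1.56, 1.81 and 2.08 in H1.0 siRNA cells with TGF-β, against 0.571, 0.731 and 0.722 in scramble cells with TGF-β. With vehicle this ratio was 0.335, 0.415 and 0.390 in H1.0 siRNA cells, against 0.189, 0.232 and 0.235 in scramble cells, so the 4 groups did not overlap. These are ratios of transcripts, with no test beyond those of the single genes.

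Of 17 other MMP genes, 13 were tested. In H1.0 siRNA against scramble cells 1 was higher and 2 were lower with TGF-β, and likewise with vehicle, a share near the 24.3% and 24.7% of all genes. With TGF-β 0 were higher and 2 lower in H1.0 siRNA cells, and again in scramble cells (15.7% and 18.4% of all genes in either direction). Mmp12, the macrophage elastase, neighbors Mmp13 on chromosome 9 and was lower in all 4 comparisons. It had 30.3, 18.7 and 20.3 CPM in H1.0 siRNA cells with TGF-β, against 52.7, 63.5 and 63.3 CPM in scramble cells with TGF-β. With vehicle it had 83.6, 68.1 and 74.4 CPM in H1.0 siRNA cells, against 144, 153 and 173 CPM in scramble cells. None of the groups overlapped. The macrophage markers did not move as one list. Lyz2, the most abundant, had 412 to 439 CPM in H1.0 siRNA cells and 558 to 586 CPM in scramble cells with vehicle, whereas the other 9 markers summed to 298 to 333 CPM in H1.0 siRNA cells and 236 to 299 CPM in scramble cells. With TGF-β these 9 summed to 166 to 256 CPM in H1.0 siRNA cells and 181 to 200.2 CPM in scramble cells, and their part in the Mmp12 result was not tested. Its siRNA effect was −1.37 under TGF-β (standard error 0.17, adjusted p = 7.9e-05) and −1.06 under vehicle (0.16, 4.2e-04). Of the other membrane-type enzymes, Mmp16 was lower with the siRNA, at −2.32 with TGF-β (0.27, 5.9e-05) and −2.24 with vehicle (0.27, 9.1e-05), and Mmp15 was higher, at 1.10 with TGF-β (0.25, 0.0049) and 1.74 with vehicle (0.24, 2.0e-04). Mmp28 fell with TGF-β in scramble cells (−1.36, standard error 0.21, adjusted p = 8.2e-04), and Mmp19 passed only with both factors changed (−0.86, 0.15, 7.5e-04).

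A list of 20 genes that activate, bind or take up MMPs and TIMPs held 19 tested genes. For the siRNA, 1 rose and 5 fell with TGF-β (13% and 11.3% of all genes), and 1 rose and 3 fell with vehicle (13.4% and 11.2%). For TGF-β, 7 rose and 4 fell in H1.0 siRNA cells (9.14% and 6.6%), and 6 rose and 4 fell in scramble cells (10.5% and 7.94%). Reck, which encodes a membrane-anchored inhibitor of MMPs, had 60.2, 60.5 and 42.7 CPM in H1.0 siRNA cells with TGF-β, against 147, 140 and 130 CPM in H1.0 siRNA cells with vehicle. In scramble cells it had 71.6, 63.9 and 56.0 CPM with TGF-β, against 159, 139 and 129 CPM with vehicle. It fell with TGF-β by 1.35 on the log2 scale in H1.0 siRNA cells (standard error 0.14, adjusted p = 7.0e-05) and by 1.16 in scramble cells (0.14, 1.9e-04). Furin, the convertase that removes the propeptide of MMP14 and MMP11, rose with TGF-β by 0.79 in H1.0 siRNA cells (0.07, 2.9e-05) and by 0.58 in scramble cells (0.07, 2.0e-04). Pcsk6, another convertase, fell with TGF-β, at −1.08 in H1.0 siRNA cells (0.16, 5.9e-04) and −0.96 in scramble cells (0.16, 0.0011). Adam10, a membrane sheddase that TIMP1 and TIMP3 inhibit, was lower with the siRNA, at −1.08 with TGF-β (0.06, 1.1e-06) and −1.005 with vehicle (0.06, 1.4e-06). Itgav, the integrin αv subunit, was also lower with the siRNA, at −1.03 with TGF-β (0.07, 1.6e-06) and −1.29 with vehicle (0.07, 4.6e-07). Cd44, a hyaluronan receptor that holds MMP9 and MMP14 at the cell surface, rose with TGF-β by 1.08 in H1.0 siRNA cells (0.09, 2.3e-05) and by 0.96 in scramble cells (0.09, 6.6e-05).

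Likeness across the 12 libraries was measured by Pearson's correlation of log2 CPM against 11453 genes with a mean of at least 100 normalized counts, for the 4 members with the widest called changes. The points share libraries and their depth. Timp1 was most like Fkbp10 (r = 0.996), Stt3a (0.994) and P4hb (0.993), which act in protein folding and glycosylation in the endoplasmic reticulum. Timp2 was most like Clca3a2 (r = 0.992), 4930523C07Rik (0.989) and Smoc2 (0.989), the last a matricellular protein. Mmp13 was most like Mmp12 (r = 0.922), Pdgfd (0.920) and Fam117a (0.916). Mmp9 was most like Minpp1 (r = 0.976), Trim27 (0.973) and Qsox1 (0.972). The 12 libraries share 4 group means, so these values describe a pattern over groups.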

How the data were processed

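Total RNA of 12 cultures, 3 for each of 4 groups, was depleted of ribosomal RNA and sequenced in read pairs by the authors. They quantified transcripts with Salmon 1.4.0 on an mm10 index from Ensembl build 102 and deposited, for each library, an estimated count (not whole, not normalized) and a TPM per transcript. Estimated counts near overlapping or nested genes depend on how Salmon divided the reads.

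Of 117135 transcripts, 115973 matched genes of GENCODE M21 on GRCm38 and held 99.54% to 99.6% of the reads. Counts were summed per gene and rounded. Library totals of 19.9 to 36.3 M leave Mmp9 and Mmp13 with few counts. TPM was used for levels between genes alone.

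edgeR 4.0.16 (R 4.3.3) was run as a quasi-likelihood F test with TMM on the 18028 genes with at least 10 counts, all groups in 1 fit, with Benjamini-Hochberg adjustment over all of them and calls under 0.01, as the count minimum and threshold of the study. The fit was first tested on simulated data with known changes, where small folds were seldom recovered. CPM values are scaled by TMM, and the standard error is the fold change over the square root of F. Same-numbered libraries deviated from their group means together in all 18 pairs (r from 0.226 to 0.607, others −0.533 to 0.218), so the replicate number was also fitted as a block. The labels do not say what a number shares. Other alternatives were DESeq2 1.42.0, limma-voom 3.58.1, RLE factors, no filter, filterByExpr, a length offset, thinning to the lowest total and leaving out libraries. Leaving out every replicate 3 library was chosen after seeing the data. All 10 members are named, with up to 6 genes of each added list called in a comparison at a mean of at least 50 normalized counts, by smallest adjusted p. The members and lists were chosen with earlier results of these data known. ChIP-seq data of the study were not analysed here.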

Additional observations from a re-analysis of the deposited data

Results flagged for a closer look

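The estimated effect of TGF-β on Mmp2 had opposite signs with and without the H1.0 siRNA, but only that in scramble cells passed the threshold. Its log2 fold change was 0.18 in H1.0 siRNA cells (adjusted p = 0.11 in edgeR), where all 3 TGF-β libraries lay above all vehicle libraries. In scramble cells it was −0.37, with all 3 below. The difference itself missed the threshold in edgeR (0.56, standard error 0.11, adjusted p = 0.061) and passed in DESeq2 (0.54, 0.10, 2.9e-05).

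The estimated effect of the H1.0 siRNA on Mmp11 likewise had opposite signs by treatment, but only that with TGF-β passed the threshold. It was 0.84 with TGF-β, with all 3 H1.0 siRNA libraries above all scramble libraries, and −0.24 with vehicle, with all 3 below. The value with vehicle is not stable, at 0.0434 (adjusted p = 0.91) with an offset for transcript length. With that offset the effect with TGF-β was 0.94 and lost its call (adjusted p = 0.0114). The test of the difference gave 1.08 and missed the threshold (standard error 0.19, adjusted p = 0.039 in edgeR). It passed with the replicate block, at an adjusted p of 0.0056.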

How the results depend on the processing

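Of 486 values of single genes under settings other than leaving out 1 library, 449 kept their direction and side of the threshold, 27 gained a call, 4 lost one and 6 changed sign. With 1 library left out, 586 of 648 were kept, 10 gained a call, 25 lost one and 27 changed sign. Members called for the siRNA with vehicle numbered 5 in DESeq2 (2 in edgeR), and for the interaction 2 in DESeq2 and 2 with the replicate block (0 in edgeR). The block took calls over all genes to 5125 for TGF-β in scramble cells (3324 without) and 4825 in H1.0 siRNA cells (2838 without). Interaction calls over all genes were 8, against 239 in DESeq2, 118 with the block, 4 in limma-voom, 1 with the length offset and 18 without every replicate 3 library. Apart from the values given with the genes above, the replicate block changed no other call of a member. Small values that changed sign were Mmp11 for the siRNA with vehicle (0.0434 with the length offset), Timp3 for the siRNA with TGF-β (0.0135 without every replicate 3 library), and the interactions of Timp1 (−0.0535 without every replicate 3 library) and Timp2 (−0.0035 in limma-voom, −0.0667 with the length offset, −0.0130 when thinned). The cause was not tested. Leaving out 1 library at a time gave 2 to 5 members called for the siRNA with TGF-β (2 without scramble TGF-β replicate 1 or H1.0 siRNA TGF-β replicate 2), 4 to 8 for TGF-β in scramble cells (4 without scramble vehicle replicate 1 or 2 or scramble TGF-β replicate 3) and 0 for the interaction. Where 4 members were called for TGF-β in scramble cells, calls over all genes were 1871, 1915 and 1976. Leaving out 1 library took Mmp3 from −0.50 to 1.54 for the siRNA with TGF-β, −1.57 to 1.24 with vehicle, −2.24 to 0.30 for TGF-β in H1.0 siRNA cells, −2.82 to −0.50 in scramble cells, −2.39 to 0.12 with both factors and −0.63 to 2.19 for the interaction. It took Mmp9 with both factors from −0.0925 to 0.514, Mmp14 for the siRNA with vehicle from −0.0425 to 0.179 and Timp3 for the siRNA with TGF-β from −0.0748 to 0.0142. Interactions ran from −0.50 to 0.38 for Mmp13, −0.18 to 0.28 for Timp1 and −0.13 to 0.20 for Timp2. At 9 to 114 counts a library, Mmp9 and Mmp13 are the members whose depth limits precision most.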

Other observations

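Mmp3 lies in a cluster of 10 MMP genes on chromosome 9 of GRCm38, from 7272514 to 7699585, of which 7 reached the count minimum. Replicate 3 was also the highest library of Mmp27 and Mmp10 in all 4 groups, as it was for Mmp3. For Mmp27 it was 1.31 to 4.73 times the next. Mmp10 was near 0, with 46.1 estimated counts in H1.0 siRNA TGF-β replicate 3 and 13.0 at most in any other library. Mmp27 had 0.520, 0.546 and 1.47 CPM in H1.0 siRNA cells with TGF-β, against 1.13, 1.06 and 5.34 CPM in H1.0 siRNA cells with vehicle. In scramble cells it had 0.175, 0.359 and 0.803 CPM with TGF-β, against 1.18, 2.40 and 3.16 CPM with vehicle. Mmp8 and Mmp1b, the second at under 1 CPM, were highest in replicate 3 in 3 of the 4 groups. At the other end of the cluster, replicate 3 was the highest in 2 of the 4 groups for Mmp13 and in 1 for Mmp12. What sets replicate 3 apart was not tested.

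Within replicate numbers, the ratio of TGF-β to vehicle for Mmp3 was 0.626, 0.521 and 0.425 in H1.0 siRNA cells and 0.497, 0.312 and 0.232 in scramble cells. The ratio for Mmp14 was 2.51, 2.50 and 2.54 in H1.0 siRNA cells and 1.92, 1.71 and 1.71 in scramble cells, higher in H1.0 siRNA cells for each number.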
